A study of Homo sapiens with 42 samples.

Results

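The Krüppel-like factors (KLFs) other than KLF1 were followed by RNA-seq in K562 cells treated with the kinase inhibitor imatinib, with a polyadenylation inhibitor or with salt. The members were 9 genes, KLF2, KLF3, KLF4, KLF6, KLF9, KLF10, KLF11, KLF13 and KLF16, found by their Ensembl gene IDs among the 58243 genes of the count tables. K562 is an established cell line from chronic myeloid leukaemia that carries the BCR-ABL1 fusion kinase, the target of imatinib, and it keeps erythroid and megakaryocytic features. All groups came from this 1 line. The groups were untreated cells (CTRL), cells given 1 μM imatinib for 1, 6 or 18 h (IM 1h, IM 6h, IM 18h), cells given 5 μM JTE-607, an inhibitor of the nuclease that cleaves pre-mRNA before polyadenylation, for 1, 6 or 18 h (JTE 1h, JTE 6h, JTE 18h), and cells in medium with 110 mM KCl added, a hyperosmotic shock, for 1 or 3 h (KCl 1h, KCl 3h). Polyadenylated RNA of whole cells (mRNA, 27 libraries in 9 groups) was sequenced for all of them. RNA of isolated nuclei, with ribosomal RNA removed, gave 15 libraries in 5 groups, for CTRL, IM 1h, IM 18h, JTE 1h and KCl 1h. Each of the 14 groups held 3 biological replicates, and CTRL carried no time point, so a treatment could not be set against untreated cells kept for the same number of hours.

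KLF proteins share a carboxy-terminal array of C2H2 zinc fingers that binds GC boxes and CACCC elements in promoters and enhancers, and they differ in the amino-terminal part, which recruits co-activators or co-repressors. KLF1 is the erythroid founder of the family. KLF3 is one of its direct targets in red cell precursors and represses through CtBP. KLF9, KLF10, KLF11, KLF13 and KLF16 recruit the SIN3A co-repressor, KLF10 and KLF11 being early genes of TGF-beta signalling and KLF9 a gene induced by glucocorticoids. KLF2 and KLF4 are induced through the kinase ERK5 and MEF2 factors in endothelium, and KLF4 and KLF6 are also known as early response genes of stressed or stimulated cells.

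Promoter windows are shown for 4 members that differ in level or response, from 250 bases before to 50 bases after the annotated start. They come from RefSeq on GRCh38.p14, where all members except KLF3 and KLF10, that is 7 of the 9, had a window. KLF4, the only member called higher with KCl, lies on the minus strand of chromosome 9, and its window is chr9:107489720-107490019. KLF16, which fell with imatinib, lies on the minus strand of chromosome 19 with the window chr19:1863530-1863829. KLF9, which fell with KCl, lies on the minus strand of chromosome 9 with the window chr9:70414608-70414907. KLF2, the member with the fewest reads, lies on the plus strand of chromosome 19 with the window chr19:16324576-16324875. Capitals mark the GC box, GGGCGG on either strand, in KLF4, KLF16 and KLF9, and the MEF2 site in KLF2.
KLF4: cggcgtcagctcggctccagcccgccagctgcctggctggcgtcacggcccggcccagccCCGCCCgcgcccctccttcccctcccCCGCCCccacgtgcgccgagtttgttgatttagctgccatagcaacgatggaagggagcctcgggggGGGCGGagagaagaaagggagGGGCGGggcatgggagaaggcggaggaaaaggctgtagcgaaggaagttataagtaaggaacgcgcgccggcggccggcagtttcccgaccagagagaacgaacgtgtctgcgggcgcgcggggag
KLF16: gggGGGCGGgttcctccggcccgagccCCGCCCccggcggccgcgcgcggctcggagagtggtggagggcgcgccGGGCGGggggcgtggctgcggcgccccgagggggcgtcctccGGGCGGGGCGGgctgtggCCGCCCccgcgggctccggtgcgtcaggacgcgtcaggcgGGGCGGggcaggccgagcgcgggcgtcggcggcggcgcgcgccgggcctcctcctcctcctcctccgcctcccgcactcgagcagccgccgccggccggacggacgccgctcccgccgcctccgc
KLF9: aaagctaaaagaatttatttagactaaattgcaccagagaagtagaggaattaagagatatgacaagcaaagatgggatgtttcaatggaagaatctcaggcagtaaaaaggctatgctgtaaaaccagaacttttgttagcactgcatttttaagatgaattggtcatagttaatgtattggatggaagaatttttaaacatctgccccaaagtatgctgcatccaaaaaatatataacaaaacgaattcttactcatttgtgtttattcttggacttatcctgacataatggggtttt
KLF2: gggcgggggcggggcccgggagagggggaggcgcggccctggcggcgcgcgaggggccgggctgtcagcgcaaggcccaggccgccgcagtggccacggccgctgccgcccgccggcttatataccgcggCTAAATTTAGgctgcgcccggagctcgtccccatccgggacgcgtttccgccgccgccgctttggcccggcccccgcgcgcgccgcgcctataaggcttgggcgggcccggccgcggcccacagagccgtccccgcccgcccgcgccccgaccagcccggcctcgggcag
The KLF16 window held 7 GC boxes and the KLF2 window 6, of which 2 overlap in each window. The KLF4 window held 4, while 45.0% of the 35116 RefSeq promoter windows held at least 1. The KLF9 window held no match to any of the 9 motifs searched, and its GC content of 32.7% was below the median of 58.7% for all windows, against 69.0% in KLF4, 80.7% in KLF2 and 86.0% in KLF16. The KLF2 window held 1 MEF2 site, found in 2.99% of all windows, which starts 120 bases before the gene. The KLF6 window held 2 GC boxes and the KLF13 window 3, together with 1 CACCC element (CCACCC, in 34.3% of all windows). KLF11 had 2 annotated starts, and the window of the second held a cyclic AMP response element (TGACGTCA, in 1.85% of all windows). The other motifs searched on both strands were an AP-1 site (TGACTCA, 4.95%), a STAT site (TTCNNNGAA, 7.66%), a GATA site (AGATAA, 10.3%), the serum response (CArG) box (1.29%) and the tonicity element (4.92%), and none of the members' windows held them. These are matches of letters only.

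Library totals were 16439848 to 22505595 counted read pairs in 25 of the mRNA libraries and 16175394 to 25103205 in nuclear RNA. The mRNA libraries KCl 1h 2 (62953314) and KCl 1h 3 (42474454) were deeper. All 11 markers of K562 cells fixed for the check, among them GATA1, TAL1 and the embryonic and fetal globins, had at least 1 CPM (counts per 1000000 counts of the library, after scaling) in CTRL. Of 12 markers of other cell types, 6 also had at least 1 CPM (among them CD3D, LYZ, EPCAM, KRT8 and PECAM1), and 3 lay under 0.1 CPM in each fraction. Genes were tested with edgeR's quasi-likelihood test, 18095 in mRNA and 21929 in nuclear RNA, and a gene was called when its Benjamini-Hochberg adjusted p over all of them was under 0.05 and its log2 fold change beyond 0.6 in either direction. Of the 9 members 8 passed the filter on low counts in both fractions, and KLF2 did not. The mRNA libraries labelled CTRL replicates 1 and 2 each varied with the treated libraries of the other's number (r of 0.104 to 0.87 over the 8 treated mRNA groups, against −0.368 to 0.0791 for the same number). Groups were compared without pairing in the main fits of both fractions, so that the mRNA values against CTRL do not depend on which of the 2 is which. In whole RNA of a culture, fewer cells that express a gene and less RNA per cell cannot be told apart.

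KLF3 was the highest of the 9 in untreated cells on the scale of CPM per kilobase of exon, and KLF4 and KLF2 were the lowest. The mRNA level of KLF3 was 22.6 ± 4.43 CPM per kilobase (SD, n = 3). KLF16 with 11.4 ± 2.44, KLF9 with 10.1 ± 2.14 and KLF10 with 8.96 ± 1.83 came next, and neighbours among these did not separate by library. KLF6 with 5.25 ± 0.919 and KLF11 with 4.74 ± 0.849 also overlapped, and KLF13 followed with 3.42 ± 0.471. KLF4, with 0.103 ± 0.0494, and KLF2, with 0.0807 ± 0.0271, overlapped each other and lay far under the other 7. In nuclear RNA the first 7 genes kept this order, from KLF3 at 20.7 ± 1.1 and KLF16 at 15.9 ± 1.43 CPM per kilobase through KLF9 (9.07 ± 1.97), KLF10 (7.09 ± 1.16), KLF6 (5.92 ± 0.437) and KLF11 (4.97 ± 0.156) to KLF13 (3.48 ± 0.283). The libraries of KLF9 and KLF10, and of KLF10 and KLF6, overlapped there. KLF2 (0.161 ± 0.0441) and KLF4 (0.143 ± 0.0192) overlapped at the bottom.

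**Figure D1:**
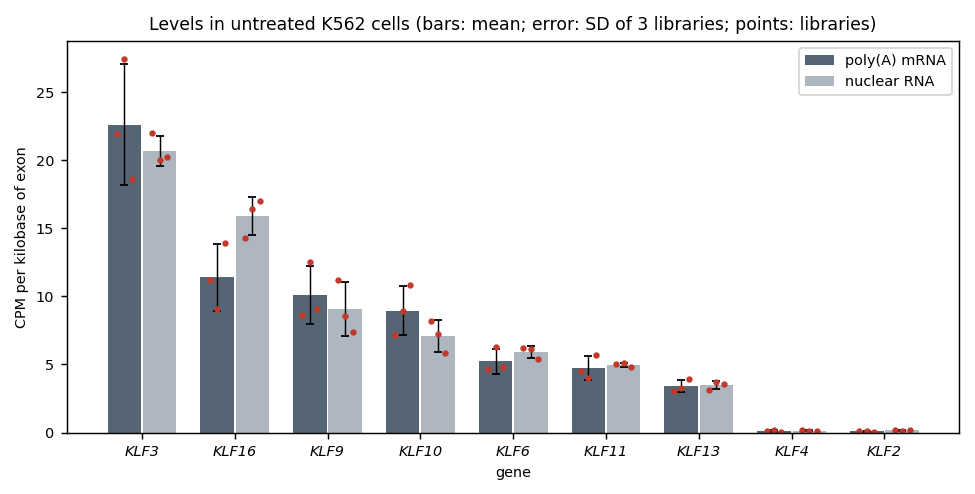
Level of the 9 KLF genes in untreated K562 cells, in CPM per kilobase of exon, for polyadenylated mRNA (dark bars) and nuclear RNA (light bars). Bars are means, error bars SDs and red points the 3 libraries; KLF3 is highest in both fractions, and KLF4 and KLF2 are near the axis.

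Read pairs were counted over exons without regard to strand, and alignment allowed introns of up to 10000 bases. KLF3 (ENSG00000109787, chr4:38664196-38701042, plus strand, hg38) and KLF9 (ENSG00000119138, chr9:70384597-70414624, minus strand) each have 1 intron beyond that limit, of 16125 and 24853 bases, and KLF13 (ENSG00000169926, chr15:31326855-31435665, plus strand) has 4. Spliced alignments across these introns were not allowed, so pairs that cross them may be missing from the counts. Their number was not measured. KLF3 shares 4.22% of its exon bases with KLF3-AS1 on the opposite strand, KLF11 (ENSG00000172059, chr2:10042849-10054836, plus strand) 9.07% with ENSG00000271787, and KLF16 (ENSG00000129911, chr19:1852399-1863568, minus strand) 16.35% with ENSG00000267125. The paper lists pairs left unassigned as ambiguous, outside the library totals, so pairs within those stretches may be missing from the counts. The exon length behind CPM per kilobase still includes these stretches. KLF2 (ENSG00000127528, chr19:16324817-16327874, plus strand), KLF4 (ENSG00000136826, chr9:107484852-107490482, minus strand), KLF6 (ENSG00000067082, chr10:3775996-3785281, minus strand) and KLF10 (ENSG00000155090, chr8:102648779-102655902, minus strand) had neither limit.

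After 18 h of imatinib, KLF3 and KLF10 rose and KLF16 fell, in mRNA and in nuclear RNA. The 3 calls stood beside 30.5% of all genes tested called in mRNA and 32.6% in nuclear RNA. The median log2 fold change of the 8 members was 0.008 in mRNA and −0.019 in nuclear RNA, against 0.038 and 0.000 over all genes.

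KLF10, a TGF-beta-inducible repressor, had the largest fold change of the 3 called members. Its mRNA held 28.6, 35.8 and 43.2 CPM in the CTRL libraries and 102, 79.6 and 65.6 CPM in IM 18h. Every IM 18h library lay above every CTRL library. In nuclear RNA CTRL held 32.7, 29.0 and 23.5 CPM and IM 18h 99.6, 69.5 and 71.6 CPM, again without overlap. The log2 fold change was 1.20 (SE 0.35, edgeR quasi-likelihood adjusted p = 0.00762) in mRNA and 1.50 (SE 0.17, edgeR quasi-likelihood adjusted p = 7.4e-07) in nuclear RNA. The earlier mRNA groups did not show this rise. IM 1h held 25.6, 21.6 and 23.0 CPM, all below CTRL, with a log2 fold change of −0.62 that was not called and a 95% interval (estimate ± 1.96 SE) of −1.3 to 0.07. IM 6h held 31.7, 15.6 and 65.1 CPM, so that replicate 3 lay just under the lowest IM 18h library while replicate 2 was the lowest KLF10 value of the series. The embryonic globin HBZ also stood apart in IM 6h replicate 3, with 290 CPM against 111 and 108 CPM in replicates 1 and 2, and its part in the KLF10 value was not tested. IM 18h exceeded IM 6h by 1.14 on the log2 scale (SE 0.34, edgeR quasi-likelihood adjusted p = 0.0434), where 4.41% of all genes were called and KLF10 was the 1 member. That call was lost in 5 of 6 fits that left out 1 library, in which the value ranged from 0.774 to 1.794. The 1 fit that kept it left out IM 6h replicate 3.

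KLF3, the CtBP-dependent repressor downstream of KLF1, rose to 279, 229 and 199 CPM in IM 18h mRNA from 138, 172 and 117 CPM in CTRL. No IM 18h library fell within the CTRL range, whereas IM 6h with 159, 140 and 195 CPM overlapped CTRL. The log2 fold change at 18 h was 0.73 (SE 0.21, edgeR quasi-likelihood adjusted p = 0.00626). It dropped under the thresholds without CTRL replicate 3 or without IM 18h replicate 1, where the fits that left out 1 library gave 0.566 to 0.862. Nuclear RNA gave 138, 126 and 127 CPM in CTRL and 264, 202 and 207 CPM in IM 18h, a log2 fold change of 0.78 (SE 0.10, edgeR quasi-likelihood adjusted p = 3.58e-06) that stayed called without any 1 library. After 1 h the nuclear libraries held 143, 139 and 143 CPM, with a log2 fold change of 0.12 that was not called. KLF1 itself, no member, was called higher at IM 6h (log2 0.74), at IM 18h (log2 1.11) and in nuclear RNA at 18 h (log2 0.96).

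KLF16, a SIN3A-binding repressor, went the other way. Its mRNA held 33.1, 26.7 and 41.2 CPM in CTRL, 19.5, 22.3 and 24.1 CPM in IM 6h and 17.0, 17.5 and 20.0 CPM in IM 18h. Both later groups lay wholly below CTRL, whereas IM 1h with 23.3, 33.7 and 39.3 CPM overlapped it. The log2 fold change at 18 h was −0.89 (SE 0.26, edgeR quasi-likelihood adjusted p = 0.0081), and that at 6 h, −0.62, was not called (adjusted p = 0.108). Nuclear RNA fell from 42.2, 48.4 and 50.3 CPM to 21.2, 28.3 and 27.1 CPM, a log2 fold change of −0.88 (SE 0.14, edgeR quasi-likelihood adjusted p = 4.3e-05). The KLF10 and KLF16 calls at 18 h held in both fractions under every alternative fit and without any 1 library.

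The edgeR test called no other member at IM 18h, and DESeq2 also called KLF2 lower in mRNA (adjusted p = 0.0433), where edgeR's low-count filter had removed it. KLF11 in nuclear RNA held 31.6, 28.6 and 29.2 CPM against 23.0, 23.4 and 22.0 CPM in CTRL, which did not overlap, and passed the adjusted p (0.0032, edgeR quasi-likelihood) with a log2 fold change of 0.39, under the fold threshold. In mRNA KLF11 had a log2 fold change of 0.38, KLF13 of 0.21, KLF6 of −0.20 and KLF9 of −0.46. KLF4 had 3, 2 and 2 counts in IM 18h mRNA against 6, 11 and 4 in CTRL, and its log2 fold change of −1.55 was not called (edgeR quasi-likelihood adjusted p = 0.0687). In nuclear RNA KLF4 held 0.448, 0.477 and 0.467 CPM at IM 18h, beside 0.580, 0.546 and 0.445 CPM in CTRL. KLF2, the shear-stress factor of endothelium, had 4, 3 and 2 counts in the CTRL mRNA libraries and 0 in each IM 18h library. With the 0 counts of IM 18h set to a floor of 3 over the group, its mRNA was 3.02-fold lower there. That value rests on 9 counts in all and takes no account of their own counting error, so it is no lower bound. In nuclear RNA KLF2 had 9, 5 and 7 counts in CTRL and 3, 2 and 2 in IM 18h. At 0 to 8 counts in every mRNA library and 2 to 10 in every nuclear one, further differences in KLF2 were not detectable at this depth. Over all mRNA libraries KLF2 summed to 52 counts and over all nuclear libraries to 85.

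The K562 markers moved with these groups as a sum, which is weighted to abundant genes such as the globins. Not every marker rose: BCR and ABL1 had their highest group mean in CTRL in both fractions. GATA1 ran from 136 to 168 CPM over the mRNA groups, with 165 CPM in CTRL. The summed level of the 11 K562 markers was 4790 to 6090 CPM in CTRL mRNA and 12300 to 17100 CPM in IM 18h, and 5690 to 7530 against 13300 to 16200 CPM in nuclear RNA. The summed level of the 12 markers of other cells went from 283 to 296 CPM in CTRL mRNA to 179 to 202 CPM in IM 18h, and from 279 to 347 CPM to 171 to 234 CPM in nuclear RNA. KRT8 (174 CPM in CTRL mRNA) and EPCAM (91.0 CPM) made up most of this sum. Over the mRNA groups KRT8 ran from 89.6 to 253 CPM and EPCAM from 85.7 to 98.8 CPM. Among those 12, CDH5 and MS4A1 lay under 0.1 CPM in CTRL in both fractions. The part of these changes in the values of KLF3, KLF10 and KLF16 was not tested.

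At IM 1h no member was called in either fraction by edgeR or DESeq2, beside 0.0166% of all genes in mRNA and 0.0456% in nuclear RNA. None of the 8 had an unadjusted p under 0.05 in mRNA (1.14% of all genes), and 1 had in nuclear RNA (3.85% of all genes), KLF11 with a log2 fold change of 0.21. At IM 6h no member was called either, by edgeR or DESeq2, beside 9.94% of all genes, and 1 member, KLF16, had an unadjusted p under 0.05, as 29.7% of all genes had. The members' log2 fold changes ran from −0.62 to 0.22 at IM 1h and from −0.72 to 0.21 at IM 6h in mRNA, and from −0.61 to 0.21 at IM 1h in nuclear RNA. Between IM 6h and IM 1h, where 8.2% of all genes were called, no member passed by edgeR or DESeq2 and 1, KLF16, had an unadjusted p under 0.05, beside 27.4% of all genes.

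**Figure D2:**
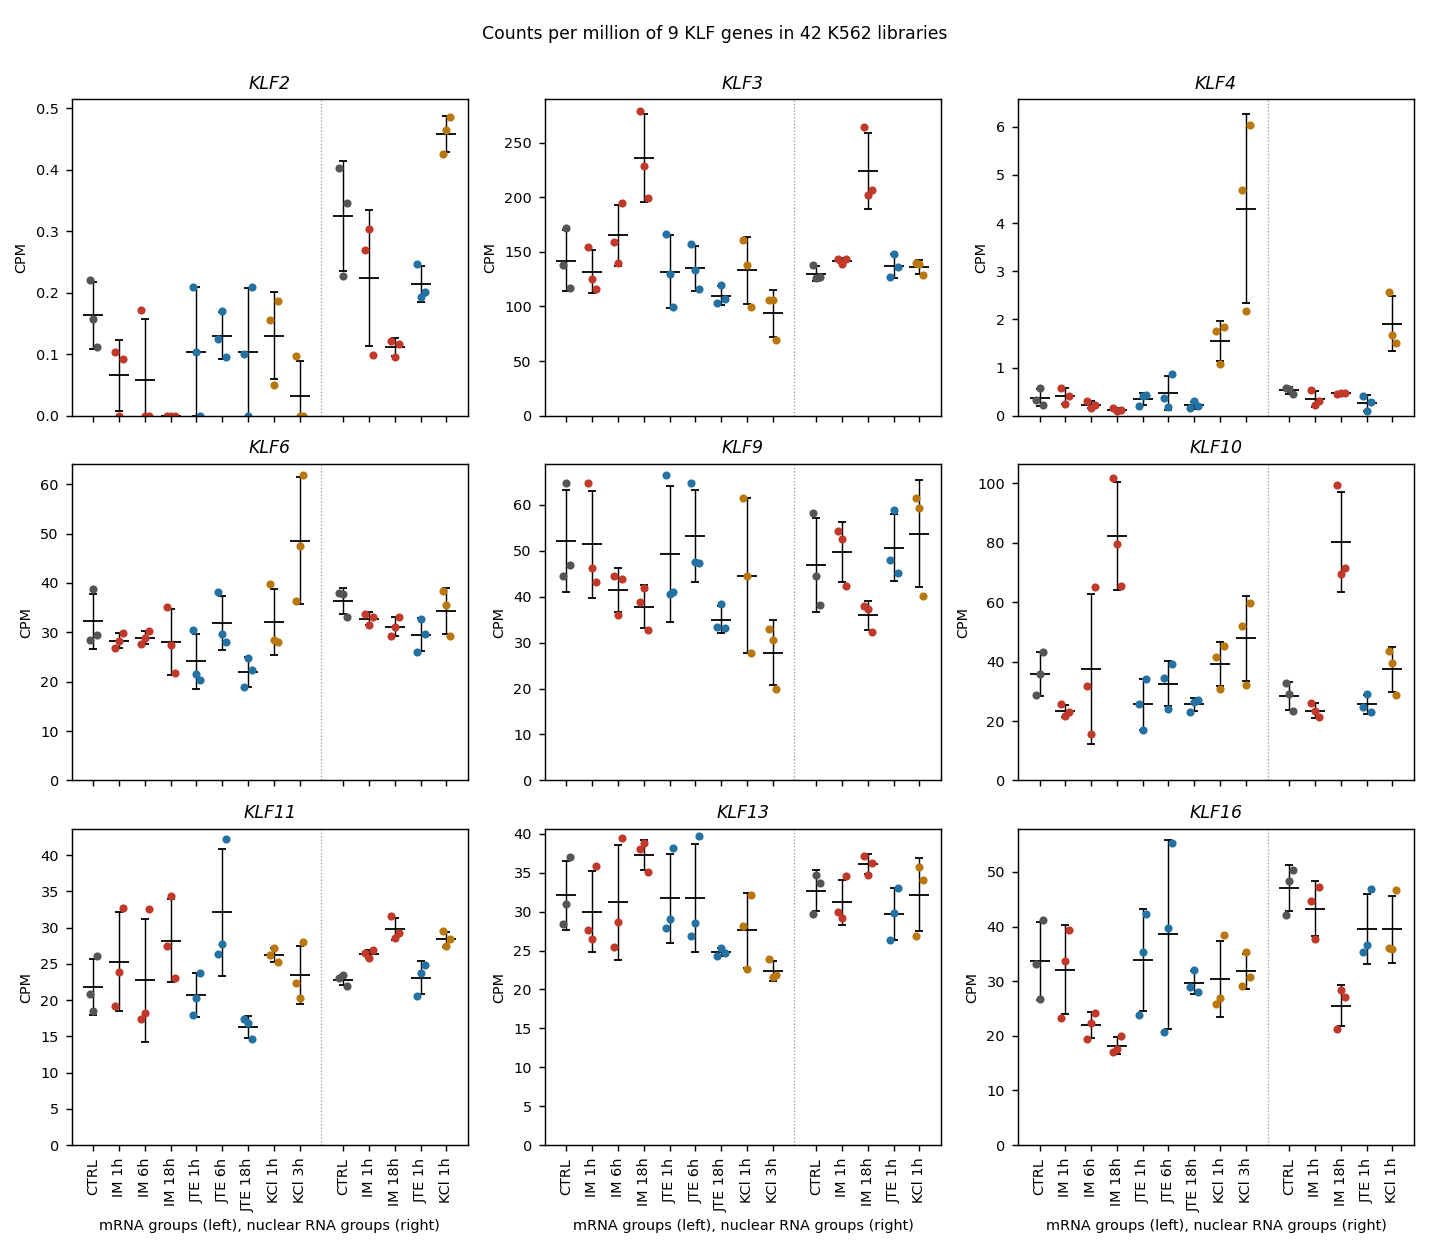
CPM of each of the 9 genes (1 panel per gene, linear axis from 0) in the 9 mRNA groups, left of the dotted line, and the 5 nuclear RNA groups, right of it. Points are the 3 libraries of a group (grey CTRL, red imatinib, blue JTE-607, brown KCl), dashes the means and error bars the SDs. KLF3 and KLF10 are high in IM 18h in both fractions, KLF16 is low there, and KLF4 rises in the KCl groups.

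With hyperosmotic shock KLF4 rose, within 1 h and further by 3 h, and its estimate was farther from 0 than that of the other 7 tested members. KLF4 encodes a factor known for roles in growth arrest and in reprogramming to pluripotency. Its mRNA had 6, 11 and 4 counts in CTRL (0.330, 0.576 and 0.223 CPM), 34, 64 and 79 counts in KCl 1h (1.76, 1.07 and 1.84 CPM) and 96, 46 and 122 counts in KCl 3h (4.69, 2.17 and 6.03 CPM). The 3 groups did not overlap in CPM, and replicate 2 was the lowest library of both KCl groups. In nuclear RNA CTRL had 13, 12 and 9 counts and KCl 1h 48, 36 and 31, or 2.56, 1.67 and 1.50 CPM against 0.580, 0.546 and 0.445 CPM in CTRL. The log2 fold change against CTRL was 2.00 (SE 0.46, edgeR quasi-likelihood adjusted p = 0.00661) at KCl 1h and 3.48 (SE 0.45, edgeR quasi-likelihood adjusted p = 5.32e-06) at KCl 3h in mRNA. In nuclear RNA at 1 h it was 1.84 (SE 0.34, edgeR quasi-likelihood adjusted p = 0.000231). All 3 calls held under every alternative fit and without any 1 library, with ranges of 1.722 to 2.441, 3.156 to 3.92 and 1.583 to 1.99. KCl 3h exceeded KCl 1h by 1.48 (SE 0.37, edgeR quasi-likelihood adjusted p = 0.0153), and this call was lost without KCl 1h replicate 2 or without KCl 3h replicate 1 or 3, with values of 1.165 to 1.802 over the fits that left out 1 library.

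KLF4 was the 1 member called at KCl 1h in mRNA, where 5.45% of all genes were called, and in nuclear RNA, where 23.8% were. In nuclear RNA at KCl 1h, KLF11 with 29.5, 27.4 and 28.4 CPM lay above CTRL in every library and passed the adjusted p (0.0203, edgeR quasi-likelihood) with a log2 fold change of 0.32, under the fold threshold. KLF10 had a log2 fold change of 0.39 there (edgeR quasi-likelihood adjusted p = 0.0916). A fit blocked on replicate number, by which the nuclear samples pair, gave 0.391 (edgeR quasi-likelihood adjusted p = 0.00199), still under the fold threshold. KLF2 had 8, 10 and 10 counts in nuclear KCl 1h and 9, 5 and 7 in CTRL, and the low-count filter had removed it from the main fit.

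After 3 h of KCl, 3 of the 8 members were called beside 11.9% of all genes: KLF4 higher, and KLF9 and KLF3 lower. KLF9, a glucocorticoid-induced repressor, held 44.6, 64.8 and 46.8 CPM in CTRL and 33.0, 30.6 and 19.8 CPM in KCl 3h, without overlap. Its KCl 1h libraries spread from 61.4 through 44.6 to 27.7 CPM and overlapped both. The log2 fold change of KLF9 at 3 h was −0.91 (SE 0.25, edgeR quasi-likelihood adjusted p = 0.013). The call was lost without CTRL replicate 2 or without KCl 3h replicate 3, and the fits that left out 1 library gave −1.045 to −0.715. KLF3 held 106, 106 and 69.1 CPM in KCl 3h, below each CTRL library, with a log2 fold change of −0.60 (SE 0.21, edgeR quasi-likelihood adjusted p = 0.0481) that lay at both thresholds. DESeq2 did not call it, and it was lost in 5 of 6 fits that left out 1 library, all except the one without CTRL replicate 3. These fits gave −0.743 to −0.428.

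The early response gene KLF6 held 36.3, 47.5 and 61.9 CPM in KCl 3h against 28.5, 38.7 and 29.5 CPM in CTRL. Its groups overlapped, and its log2 fold change of 0.59 passed the adjusted p (0.0427, edgeR quasi-likelihood) but not the fold threshold. KLF13, a SIN3A-binding factor of lymphoid and erythroid cells, held 23.9, 21.6 and 21.8 CPM against 28.4, 31.0 and 37.0 CPM, with a log2 fold change of −0.52 and an adjusted p of 0.0416 by the edgeR quasi-likelihood test, also under the fold threshold. KCl 3h replicate 3 was the library farthest from CTRL for KLF3, KLF4, KLF6, KLF9 and KLF10. Without it the log2 fold change of KLF4 stayed called and 1 member was called in place of 3. KLF10 at 51.9, 32.0 and 59.9 CPM, KLF11 at 22.3, 20.3 and 28.0 CPM and KLF16 at 29.1, 35.3 and 30.8 CPM overlapped CTRL at KCl 3h. Between KCl 3h and KCl 1h 3.29% of all genes were called, and KLF4 was the 1 member. A fit blocked on replicate number, by which the samples of these 2 groups pair, also called KLF9 lower in KCl 3h than in KCl 1h, with a log2 difference of −0.656 (SE 0.196, edgeR quasi-likelihood adjusted p = 0.0426) against −0.68 and an adjusted p of 0.145 without the block. That blocked fit held all mRNA libraries, among them CTRL, whose numbers did not pair.

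JTE-607 gave no call for any member against CTRL, in mRNA at 1, 6 or 18 h or in nuclear RNA at 1 h, by edgeR or by DESeq2. The share of all genes called was 0.851% at JTE 1h, 13.2% at JTE 6h, 5.39% at JTE 18h and 8.52% in nuclear RNA at JTE 1h. Members with an unadjusted p under 0.05 in the edgeR quasi-likelihood test numbered 1, 1, 3 and 2 of 8 in these 4 comparisons, beside 7.41%, 29.5%, 22.7% and 21.8% of all genes. At JTE 18h all 8 log2 fold changes were negative, from −0.79 to −0.18 with a median of −0.452, against −0.011 over all genes, and none was called. KLF6 held 18.9, 24.9 and 22.3 CPM there, below each CTRL library, with a log2 fold change of −0.55 and a 95% interval of −0.94 to −0.16. KLF9 held 33.3, 38.4 and 33.2 CPM, also below CTRL, with a log2 fold change of −0.58 and an interval of −1.06 to −0.09. KLF13 held 24.3, 25.3 and 24.7 CPM, with a log2 fold change of −0.38 and an interval of −0.72 to −0.04. These intervals take no account of the number of genes tested. The summed K562 markers were 3470 to 4760 CPM at JTE 18h against 4790 to 6090 CPM in CTRL mRNA. The summed markers of other cells, mostly KRT8 and EPCAM, were 368 to 424 against 283 to 296 CPM. The part of both sums in the members' values was not tested.

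KLF11, the second TGF-beta-inducible repressor of the family, changed between the JTE-607 time points. It held 17.9, 20.3 and 23.8 CPM at JTE 1h, 26.4, 27.7 and 42.2 CPM at JTE 6h and 17.4, 16.8 and 14.6 CPM at JTE 18h. JTE 6h lay above the other time points in every library and above the CTRL libraries of 20.8, 18.5 and 26.1 CPM, and replicate 3 was its highest. JTE 18h was lower than JTE 6h by a log2 difference of −0.98 (SE 0.23, edgeR quasi-likelihood adjusted p = 0.00368), and the fits that left out 1 library, −1.103 to −0.735, kept the call. KLF11 was the 1 member called there, beside 13.4% of all genes. From JTE 1h to JTE 6h, where 9.21% of all genes were called, no member was called by edgeR or DESeq2 and 1, KLF11, had an unadjusted p under 0.05, as 24.6% of all genes had, with a log2 difference of 0.64 (edgeR quasi-likelihood adjusted p = 0.0685). A fit of all mRNA libraries blocked on replicate number called it at 0.623 (SE 0.191, edgeR quasi-likelihood adjusted p = 0.0228). The numbers pair these JTE-607 samples, but not every group in that fit. KLF16 held 20.7, 39.7 and 55.3 CPM in the JTE 6h libraries, which overlapped CTRL.

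**Figure D3:**
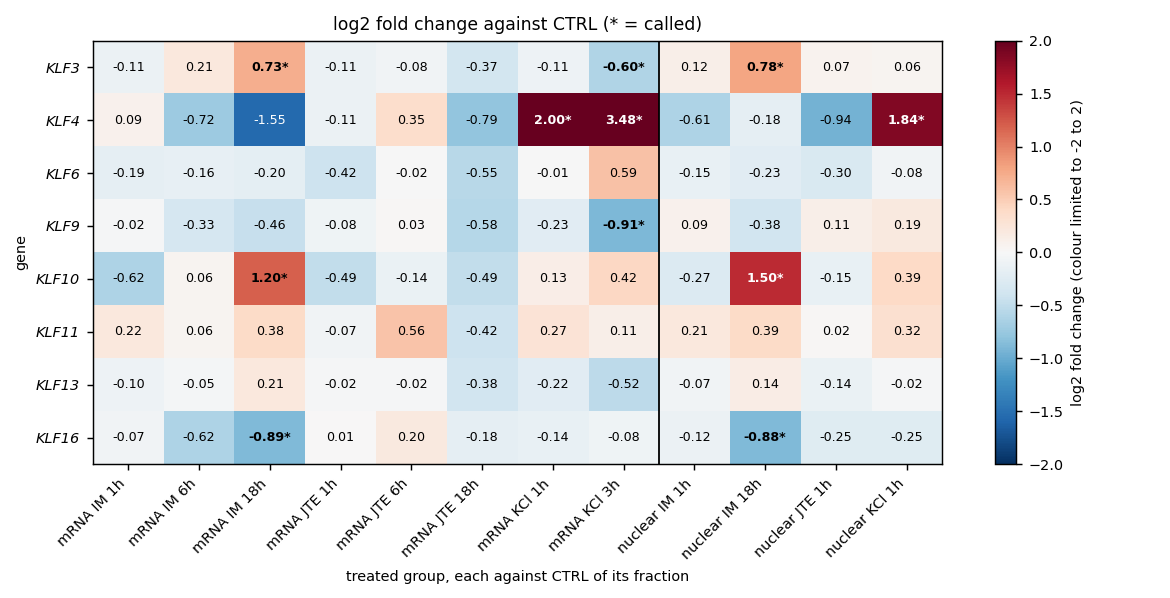
Log2 fold change of the 8 tested members (rows) in each of 12 treated groups against CTRL of the same fraction (columns, mRNA left of the black line). Red is higher and blue lower than CTRL, the numbers are the values and an asterisk marks a call. Of 96 values 11 were called, all in IM 18h, KCl 1h or KCl 3h.

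The responses in nuclear RNA and mRNA were set against each other by a direct test of their difference. It called no member in any of the 4 treatments measured in both fractions, by edgeR or DESeq2. The share of all genes called was 0.0% at IM 1h, 0.0851% at IM 18h, 0.0605% at JTE 1h and 0.668% at KCl 1h, so few genes of any kind passed. The 1 member with an unadjusted p under 0.05 was KLF4 at IM 18h, where 4.81% of all genes had one, whose nuclear log2 fold change exceeded that in mRNA by 1.44 (SE 0.66, edgeR quasi-likelihood adjusted p = 1.0). At IM 18h the difference was 0.37 for KLF10 with a 95% interval of −0.15 to 0.89, 0.13 for KLF3 with −0.28 to 0.54, and 0.08 for KLF16 with −0.34 to 0.49. At KCl 1h it was −0.25 for KLF4, with an interval of −1.34 to 0.84. The intervals leave room for differences of up to that size in each direction.

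**Figure D4:**
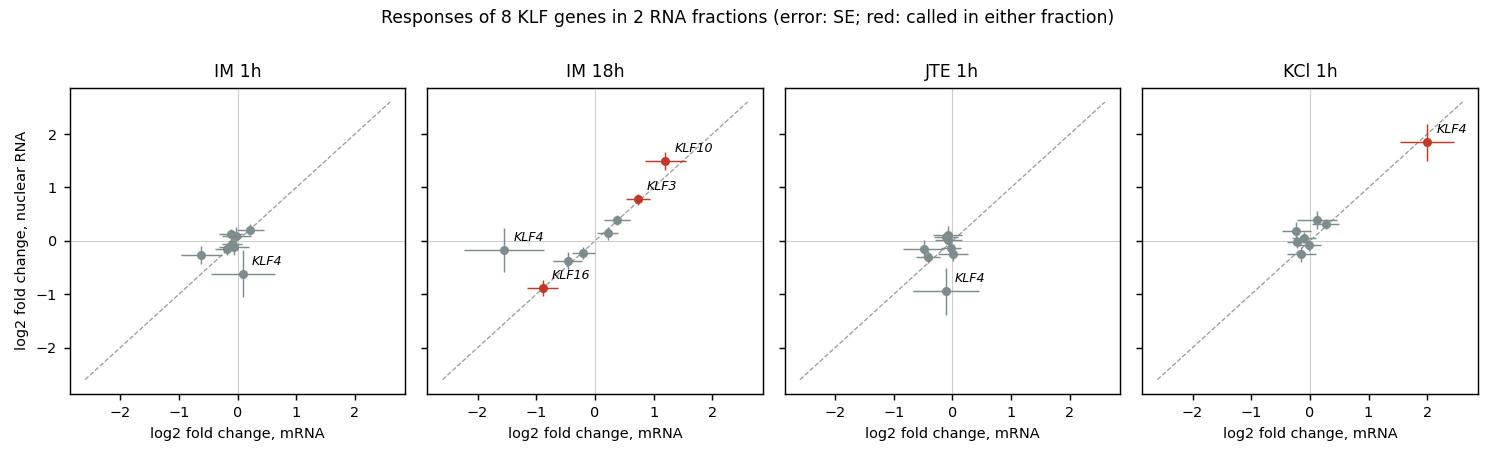
Log2 fold change against CTRL in mRNA (horizontal axis) and in nuclear RNA (vertical axis) for the 8 tested members, in 1 panel per treatment measured in both fractions. Bars are SEs, the dashed line marks equal responses and red points are members called in either fraction. At IM 18h KLF3, KLF10 and KLF16 lie near the line, and so does KLF4 at KCl 1h.

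The genes around the family were counted from fixed lists. Of all genes 9.94% were called at IM 6h, 30.5% at IM 18h, 11.9% at KCl 3h and 32.6% in nuclear RNA at IM 18h. Of 9 other KLF genes 3 were tested. At IM 6h 1 was called, KLF1 higher. At IM 18h KLF1 was called higher and KLF15 lower (log2 −1.89), and in nuclear RNA KLF15 (log2 −2.93) and KLF5 (log2 −0.98) were called lower beside KLF1. The SP factors, which bind the same GC boxes, had 7 of 9 tested in mRNA and 8 in nuclear RNA. SP5 was called higher at IM 6h (log2 1.43), at IM 18h (log2 1.10, not called by DESeq2) and in nuclear RNA at 18 h (log2 1.11), and at KCl 3h SP4 (log2 −0.75) and SP8 (log2 −1.75) were called lower. The co-repressors of KLF factors, SIN3A, SIN3B, HDAC1, HDAC2, CTBP1 and CTBP2, were all tested, and edgeR and DESeq2 called 0 of 6 at IM 18h in mRNA, where 5 had an unadjusted p under 0.05. Of all genes 30.5% were called there and 50.8% had such a p. The edgeR test called none of them in the other comparisons with CTRL.

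Of 6 ERK5 and MEF2 genes, which act upstream of KLF2 and KLF4, 5 were tested, and none was called with KCl. The share of all genes called was 5.45% at KCl 1h and 11.9% at KCl 3h in mRNA, and 23.8% at KCl 1h in nuclear RNA. MEF2C was called lower at IM 6h (log2 −0.63) and in nuclear RNA at IM 18h (log2 −0.72), and MAP2K5, the kinase of ERK5, higher at IM 18h in mRNA (log2 0.65). Of 7 TGF-beta pathway genes, upstream of KLF10 and KLF11, the mRNA fit tested 6 and the nuclear fit all 7. The receptor TGFBR1 was called lower at IM 6h (log2 −0.78), at IM 18h (log2 −1.11) and in nuclear RNA at 18 h (log2 −1.11). The inhibitory SMAD7 was called lower at IM 18h in mRNA (log2 −1.84) and was not called in nuclear RNA at that time. The glucocorticoid and clock genes listed beside KLF9 were all 6 tested. The circadian repressors NR1D1 (log2 −2.07, −2.61 and −2.18), PER1 (log2 −1.27, −1.50 and −1.49) and PER2 (log2 −1.24, −1.25 and −1.12) were called lower at IM 6h, at IM 18h and in nuclear RNA at 18 h. TSC22D3, a glucocorticoid target, was called higher in nuclear RNA at IM 18h (log2 1.97) and at KCl 1h (log2 2.05). It was not called in mRNA at IM 18h or KCl 1h. No gene of these lists was called against CTRL with JTE-607, beside 0.851% to 13.2% of all genes.

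The genes whose levels ran most like those of a member were searched among 8709 genes by Pearson's r of log2(CPM + 0.5) over the 27 mRNA libraries. These r share treatments and libraries and are a description. For KLF4 they were GADD45B (r = 0.95) and SNAI1 (r = 0.944), a stress-response gene and a repressor of epithelial genes, with r = 0.929 and r = 0.828 over the 15 nuclear libraries. KLF4 held at most 0.861 CPM in the mRNA libraries without KCl and at least 1.07 CPM in those with KCl. Its r therefore rest mainly on the KCl groups, the other libraries lying near the floor. For KLF3 the nearest genes were MXI1 (r = 0.935) and NUDT4 (r = 0.927), with r = 0.949 and r = 0.87 in nuclear RNA. For KLF16 they were MIEF1 (r = 0.936) and KIAA2013 (r = 0.933), with r = 0.967 and r = 0.948 in nuclear RNA. For KLF10 they were NBAS (r = 0.894) and EXOC4 (r = 0.883), with r = 0.755 and r = 0.91 in nuclear RNA.

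KLF9 ran with GRPEL2 (r = 0.892) and ELF1 (r = 0.885), which kept r = 0.922 and r = 0.868 in nuclear RNA, and KLF13 with FCHSD2 (r = 0.843) and FAM53B (r = 0.828), which kept r = 0.666 and r = 0.793. KLF6 ran with SNHG1 (r = 0.76), with r = 0.606 in nuclear RNA. KLF11 ran with IRS2 (r = 0.785) and NIT2 (r = 0.766), with r = 0.525 and r = 0.112 in nuclear RNA. KLF2, at a few counts per library, gave SUSD6 (r = 0.704) and TGDS (r = 0.658), with r = 0.71 and r = 0.43 in nuclear RNA, from which nothing is read. The likeness was thus nearest in both fractions for KLF3, KLF4, KLF9 and KLF16, and the lowest nuclear r given here was that of KLF11 with NIT2. Nuclear RNA was not measured at the middle time point of imatinib or at the later time points of JTE-607 and KCl. The r of mRNA and of nuclear RNA therefore cover different groups, and a lower nuclear r cannot be read as a difference between fractions.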

How the data were processed

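K562 cells were sequenced as whole-cell polyadenylated RNA (27 libraries) and as nuclear RNA depleted of ribosomal RNA (15 libraries), with paired ends. The authors deposited raw counts of read pairs per gene, 1 table per fraction. They trimmed and deduplicated reads with FASTP, aligned them with STAR keeping unique alignments, and counted pairs over exons with featureCounts without strand. The submitters' processing notes name GRCh38.p14, and the annotation release is not given in the sources used here. The exon length per gene came from the same tables.

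Members were matched by Ensembl ID to symbols of GENCODE release 44. Members and related lists were chosen with earlier results of these data known, so no list is independent support. All 9 members were to be named, with a fold change where called and the rest as ranges, counts and selected values. The members' other values in the text were chosen after they were seen. The related lists were other KLF genes, SP genes, co-repressors, ERK5 and MEF2 genes, TGF-beta pathway genes, and glucocorticoid and clock genes. The 2 genes most like each member were sought among genes with a symbol and a mean of at least 10 mRNA CPM. For KLF6, 1 of them is not reported here.

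Groups followed the sample titles. CPM was count divided by library total times the normalisation factor, and the text's error is the SD of 3 libraries. The total of read pairs limits the precision of low genes, and statements on counts cover counting error at most. Each fraction was fitted once with edgeR 4.0.16 in R 4.3.3 (TMM factors, filterByExpr, robust quasi-likelihood test, 1 term per group), the 4 differences between fractions in a joint fit, with Benjamini-Hochberg adjustment over all genes. Calls used the study's 2 thresholds, 0.05 for the adjusted p and 0.6 for the absolute log2 fold change. The SE is the absolute log2 fold change divided by the square root of F. The test was checked on simulated counts. Alternatives were RLE factors, total counts, no low-count filter, no fold threshold, thinning to 1 depth, DESeq2 1.42.0, the 2 groups alone, the replicate number as a block, and leaving out each library.

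Replicate numbers in the titles were taken to pair samples where the deviations of same-numbered libraries from their group means correlated at over 0.1 in every pair. This held for all 4 nuclear comparisons with CTRL (lowest r 0.235) and for mRNA IM 6h against IM 1h, JTE 6h against JTE 1h, JTE 18h against JTE 6h and KCl 3h against KCl 1h (lowest r 0.112). It did not hold for IM 18h against IM 6h, or for mRNA against CTRL with the numbers as labelled. There CTRL replicates 1 and 2 varied with the treated libraries of each other's number. The paper's read totals give the library labelled CTRL replicate 2 here, with 19031221 pairs, as replicate 1. No fit with these 2 exchanged was run.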

Additional observations from a re-analysis of the deposited data

Results flagged for a closer look

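For 3 members the response to a treatment differed between time points by a direct test of one time against the other. KLF10 was higher in IM 18h than in IM 6h by 1.14 on the log2 scale, KLF11 changed by −0.98 from JTE 6h to JTE 18h, and KLF4 was higher in KCl 3h than in KCl 1h by 1.48. All 3 are mRNA comparisons with 3 libraries a group, called by edgeR's quasi-likelihood test. KLF11 kept its call without any 1 library, whereas the KLF10 and KLF4 calls did not.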

How the results depend on the processing

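Of 314 recomputed counts of called members 288 stayed within 1.5 times the reported count, and of 182 recomputed fold changes of called members 158 stayed called, 24 were lost and 0 changed sign. The 288 include counts of 0 that stayed 0, and a count could stay while its members changed. At mRNA IM 18h without CTRL replicate 3, KLF4 was called in place of KLF3. At IM 6h 1 member, KLF16, was called without the low-count filter, with the replicate block or with the 2 groups alone, in place of 0. At KCl 3h, dropping the fold threshold gave 5 members in place of 3, and leaving out 1 library gave 1 to 3. Between IM 6h and IM 1h, 1 member was called without the low-count filter, and leaving out 1 library gave 0 to 1. IM 18h against IM 6h gave 0 with total counts only or with the 2 groups alone, and leaving out 1 library gave 0 to 2. JTE 6h against JTE 1h gave 1 with the replicate block and with thinned counts. JTE 18h against JTE 6h gave 1 to 2 when 1 library was left out. KCl 3h against KCl 1h gave 2 without the low-count filter and with the replicate block, 0 with the 2 groups alone, and 0 to 2 without 1 library. Nuclear KCl 1h gave 2 without the fold threshold. In mRNA against CTRL, where the numbers did not pair the samples, the replicate block also called KLF4 at IM 18h (log2 −1.588). Among the paired comparisons, the block changed no call other than those of KLF11 and KLF9 given with the results. Scaling by total counts moved the median of all genes between JTE 18h and JTE 6h from −0.04 to 0.102 and the genes called higher and lower from 1404 and 1027 to 2065 and 752, with KLF11 still called lower. The median of the KCl 1h difference between fractions was −0.074 in the main fit and 0.131 with DESeq2. The DESeq2 median covered all genes with any count, and edgeR without the low-count filter gave 0.041. The number of all genes called, behind the shares given with the results, went from 154 to between 5 (2 groups alone) and 258 (replicate block) at JTE 1h, from 798 to between 182 and 1474 for IM 18h against IM 6h (without IM 6h replicate 1 or 3), from 986 to 465 at KCl 1h (2 groups alone), from 1667 to 800 for JTE 6h against JTE 1h (2 groups alone), from 596 to between 294 (2 groups alone) and 990 (no low-count filter) for KCl 3h against KCl 1h, and from 975 to 576 at JTE 18h (without its replicate 3). It went from 1483 to 983 for IM 6h against IM 1h (without IM 6h replicate 3), from 10 to between 4 (1 library left out) and 69 (replicate block) at nuclear IM 1h, from 3 to between 1 (1 library left out) and 13 (no low-count filter) at mRNA IM 1h, and from 5227 to 8022 at nuclear KCl 1h without the low-count filter. In the differences between fractions, it went from 17 to between 9 and 61 at IM 18h, from 12 to between 1 and 62 at JTE 1h and from 141 to between 59 and 400 at KCl 1h, the lower count with 1 library left out and the higher without the low-count filter, and from 0 to 2 at IM 1h without that filter. Without the low-count filter, KLF2 was called lower at IM 18h, as it was by DESeq2, on 9 counts against 0. The causes of these changes were not tested. Depth limits KLF2 and KLF4, which held at most 11 counts in each CTRL mRNA library.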
